A study of Xenopus laevis with 27 samples.

Results

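This report concerns 4 peptide hormone genes in the brain of adult Xenopus laevis, the African clawed frog, after hindlimb amputation: avp.L, gh1.S, nts.L and gnrh1.L. The suffixes .L and .S mark the long and short copies (homeologs) that the allotetraploid genome carries of many genes. The genes were picked by name, and 2 gene models in the tables share the name gh1.S, so 5 of 42903 gene models are described. Model 1 (gene1525) is the one with the higher mean level in brain and model 2 (gene44537) the other. The genes were picked with their brain values in this series known, so their brain levels are a description and carry no test. As far as is known, their limb levels and the other copies avp.S and nts.S were not part of that choice, and these are tested.

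The avp gene of frogs encodes the precursor of vasotocin, the amphibian counterpart of vasopressin, which hypothalamic neurons make and release from the posterior pituitary and which acts on water balance and social behaviour. The gh1 gene encodes growth hormone, the secretory product of the somatotrophs of the anterior pituitary. Neurotensin, encoded by nts, is a neuropeptide of many brain regions that modulates dopamine neurons in mammals. The gnrh1 gene encodes gonadotropin-releasing hormone, which a small population of forebrain neurons sends to the pituitary to drive the release of the gonadotropins, and which in vertebrates is under feedback from sex steroids. No sequence of these genes was in the sources used here, and none is printed.

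The series asks how a short local exposure of the amputated hindlimb to progesterone, given by a wearable bioreactor, acts on regeneration in the adult frog. Animals had a progesterone treatment, a silk treatment that served as the sham, or no device. Blastema, stump and brain were sequenced with 3 libraries per tissue and treatment, 27 in all. The labels give neither the strain, sex and age of the frogs, nor the dose, nor the time of sampling, nor whether brain, stump and blastema of a number came from 1 frog, nor whether the pituitary was taken with the brain. Values are FPKM, reads scaled for the length of the gene model and the size of the library, so levels can be compared between genes. Reads behind a value were estimated from the FPKM and the deposited group means. Brain libraries held 641365 to 2087749 estimated reads and limb libraries 179769 to 3468309.

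Some libraries were near-identical. Brain no device 1 and 3 differed at 0.318% of 18865 genes in a chi-square test of estimated reads, and were averaged into 1 sample, so n = 3, 3 and 2 for brains with progesterone, silk and no device. The pairs blastema progesterone 1 and 3 and stump no device 1 and 3 were averaged likewise. Brain progesterone 2 and 3 differed at 1.51% of 19027 genes, just over the limit of 1%. They were the closest pair of a group left apart, and count as 2 samples throughout. Another near-identical set crossed the labels: silk 3 of the brain set and its no device 1 were apart at 0.314% of genes, silk 3 and no device 3 at 0.302%, and silk 1 and 2 at 3.05%. Silk 3 was kept in its labelled group, and the differences and list counts that involve silk were also computed without it. Without silk 3 none of the listed or described genes that were tested passed in a brain comparison. In brain silk 1 and 2 the gene smad4.1.S alone took 11.7% and 10.3% of the estimated reads, against 0.0526 to 0.765% in the other brain libraries. In blastema it took 22.4, 39.2 and 40.4% in silk 1, 2 and 3 and 26.0% in progesterone 2. In stump it took 21.2 and 32.1% in silk 1 and 2 and 16.3% in progesterone 1. The other limb libraries were at 0.0909 to 4.09%. Neuron markers were abundant in all 9 brain libraries, with summed levels of 3358 to 3533 FPKM with progesterone, 3039 to 4037 FPKM with silk and 3254 to 4028 FPKM without a device. In bulk tissue, fewer cells of a type and less RNA per cell cannot be told apart.

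The less abundant of the 2 vasotocin copies, avp.L, was highest in the progesterone brains. The avp.L gene (gene12182) stood at 97.4, 57.3 and 56.4 FPKM in progesterone 1, 2 and 3, at 25.5, 47.3 and 31.2 FPKM in silk 1, 2 and 3, and at 40.7, 9.87 and 51.0 FPKM in no device 1, 2 and 3. All 3 progesterone libraries lay above all silk and no device libraries, while the silk and no device libraries overlapped. The means were 70.4 ± 23.4 FPKM with progesterone, 34.7 ± 11.3 FPKM with silk and 27.8 ± 25.4 FPKM without a device (SD, n = 3, 3 and 2). On the log2(FPKM + 1) scale the difference was 1.61 ± 0.60 (SE) for progesterone minus no device, 1.00 ± 0.53 for progesterone minus silk and 0.61 ± 0.60 for silk minus no device. The 2 no device samples were far apart: the difference between progesterone and no device was 0.56 without no device 2 and 2.67 without the merged no device sample, and silk minus no device was −0.44 and 1.67 in the same order. Without silk 3, progesterone minus silk was 0.95 and silk minus no device 0.67. Between 10 and 148 estimated reads per library lay behind avp.L.

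**Figure D1:**
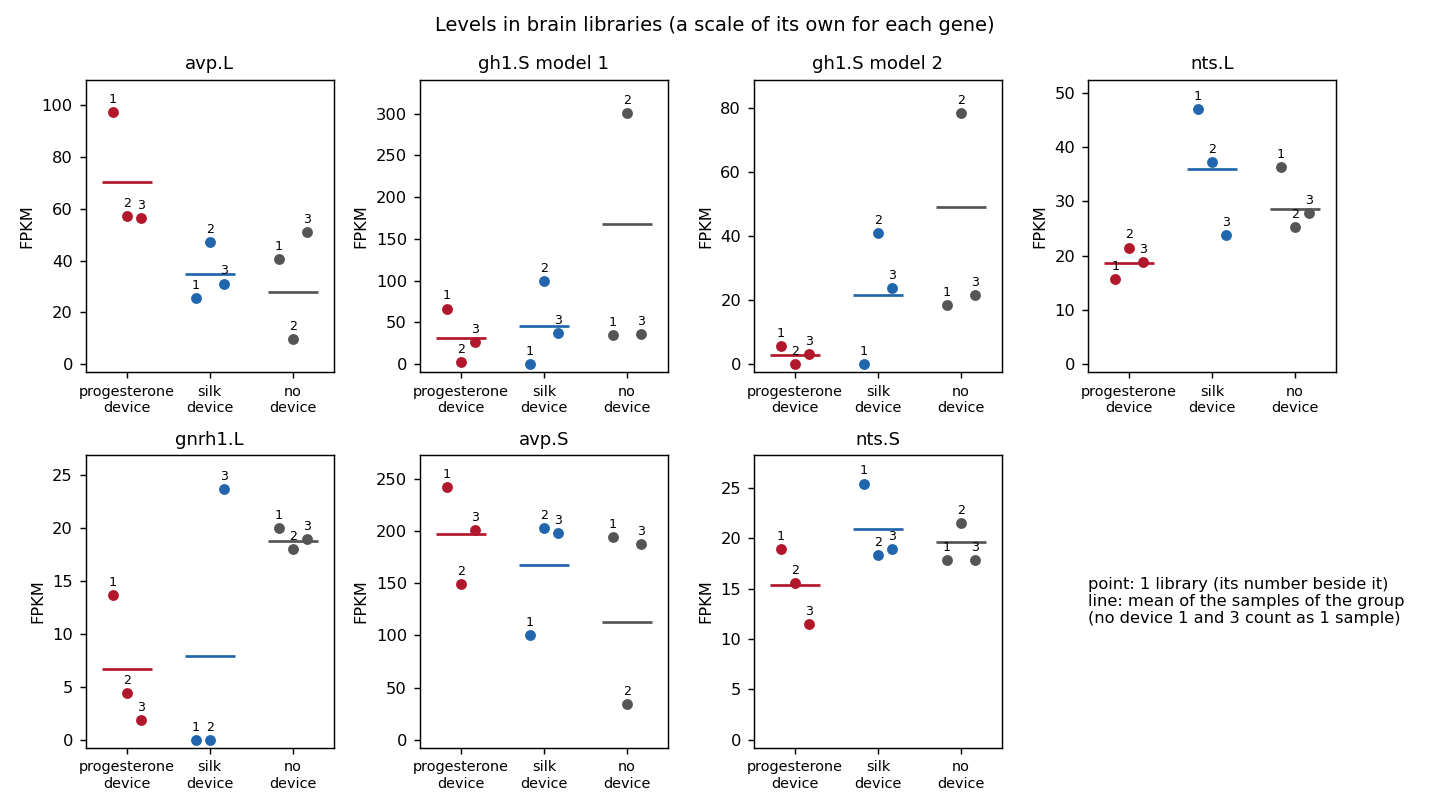
FPKM (vertical axis, linear, a scale per panel) of the 5 gene models and of avp.S and nts.S in the brain libraries with progesterone, silk and no device; numbered points are libraries and lines are means over samples. The avp.L points with progesterone, 56.4 to 97.4 FPKM, all lie above the others, and the nts.L points with progesterone, 15.6 to 21.5 FPKM, all lie below them.

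The second vasotocin copy was more abundant, and its groups overlapped. The avp.S gene (gene18243) stood at 242.0, 149 and 201 FPKM in progesterone 1, 2 and 3, at 101, 203 and 199 FPKM in silk 1, 2 and 3, and at 194, 34.2 and 188 FPKM in no device 1, 2 and 3. Progesterone 2 lay below silk 2 and 3 and below no device 1 and 3. It did not pass the test in limma in any brain comparison, with differences of 1.24 ± 0.67 for progesterone minus no device (adjusted p = 1), 0.28 ± 0.60 for progesterone minus silk (adjusted p = 0.932) and 0.97 ± 0.67 for silk minus no device (adjusted p = 0.939). The levels of both copies summed to 339, 207 and 258 FPKM in progesterone 1, 2 and 3, to 126, 250.3 and 230 FPKM in silk 1, 2 and 3, and to 235, 44.1 and 239 FPKM in no device 1, 2 and 3, so total vasotocin mRNA overlapped between the groups. Both avp copies were lowest in the library no device 2, at 9.87 and 34.2 FPKM. Over the 8 brain samples Pearson's r between the 2 copies on the log2(FPKM + 1) scale was 0.90, with library, depth and dissection shared by the points.

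The balance of the 2 copies was followed as the share of avp.L in the estimated reads of both. It was 32.0% (95% Wilson interval 27.9 to 36.3), 30.9% (25.2 to 37.3) and 24.5% (20.2 to 29.5) in progesterone 1, 2 and 3. With silk it was 23.1% (13.7 to 36.1), 21.5% (15.3 to 29.4) and 15.6% (11.7 to 20.4), and without a device 19.7% (15.4 to 24.9), 25.6% (14.6 to 41.1) and 24.1% (19.6 to 29.4) in the same library order. Progesterone 3, at 24.5%, lay inside the range of the no device libraries, so the progesterone and no device shares overlapped, while all 3 progesterone shares lay above the 3 silk shares, with intervals that met. The intervals cover counting error only, since amplified reads are not independent molecules. Short reads can also be assigned to the wrong one of 2 similar copies, and how much they were here was not tested.

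Growth hormone mRNA varied more between libraries of a group than between groups. Model 1 of gh1.S stood at 66.6, 2.17 and 26.0 FPKM in progesterone 1, 2 and 3, at 0, 99.7 and 36.8 FPKM in silk 1, 2 and 3, and at 35.2, 300.3 and 35.5 FPKM in no device 1, 2 and 3. The 3 groups overlapped, and the span within the silk group alone ran from a gene listed at 0 to 99.7 FPKM. The means were 31.6 ± 32.6 FPKM with progesterone, 45.5 ± 50.4 FPKM with silk and 168 ± 187 FPKM without a device (SD, n = 3, 3 and 2). The difference was −2.54 ± 2.08 for progesterone minus no device (−1.02 without no device 2), −2.74 ± 2.08 for silk minus no device (−0.76 without silk 1) and 0.20 ± 1.86 for progesterone minus silk. Without silk 3 silk minus no device was −3.38 and progesterone minus silk 0.84. The sign of this last difference was the opposite without silk 1 (−1.78) and also without progesterone 1, without progesterone 3, with a pseudocount of 5 and with limma-voom.

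Model 2 of gh1.S was lower in the progesterone libraries than in every no device library. It stood at 5.80, 0 and 3.11 FPKM in progesterone 1, 2 and 3, at 0, 41.0 and 23.7 FPKM in silk 1, 2 and 3, and at 18.6, 78.4 and 21.6 FPKM in no device 1, 2 and 3. Silk overlapped both other groups, since silk 1 was listed at 0 and silk 2 and 3 lay within the span of the no device libraries. The differences were −3.75 ± 1.59 for progesterone minus no device, −1.74 ± 1.43 for progesterone minus silk and −2.02 ± 1.59 for silk minus no device, with −3.41 for progesterone minus silk and −0.35 for silk minus no device once silk 1 was left out. Without silk 3 they were −1.09 for progesterone minus silk and −2.66 for silk minus no device.

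The 2 models sharing a name gave different shares in different libraries. Model 2 took 6.72% of the gh1.S reads in progesterone 1 (95% Wilson interval 3.45 to 12.7), 0 of 3 reads in progesterone 2 and 9.09% in progesterone 3 (3.59 to 21.2). It took 25.3% (17.3 to 35.3) and 34.9% (25.6 to 45.7) in silk 2 and 3, with no reads of either model in silk 1. Without a device it took 30.6% (21.1 to 42), 17.6% (14.2 to 21.6) and 33.8% (24.3 to 44.6) in no device 1, 2 and 3. The share was thus lower in progesterone 1 and 3 than in each silk and no device library that had reads, though the interval of progesterone 3 reached above the value of no device 2. The files do not say how the 2 models differ, and reads common to both were divided between them by the authors' counting.

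**Figure D2:**
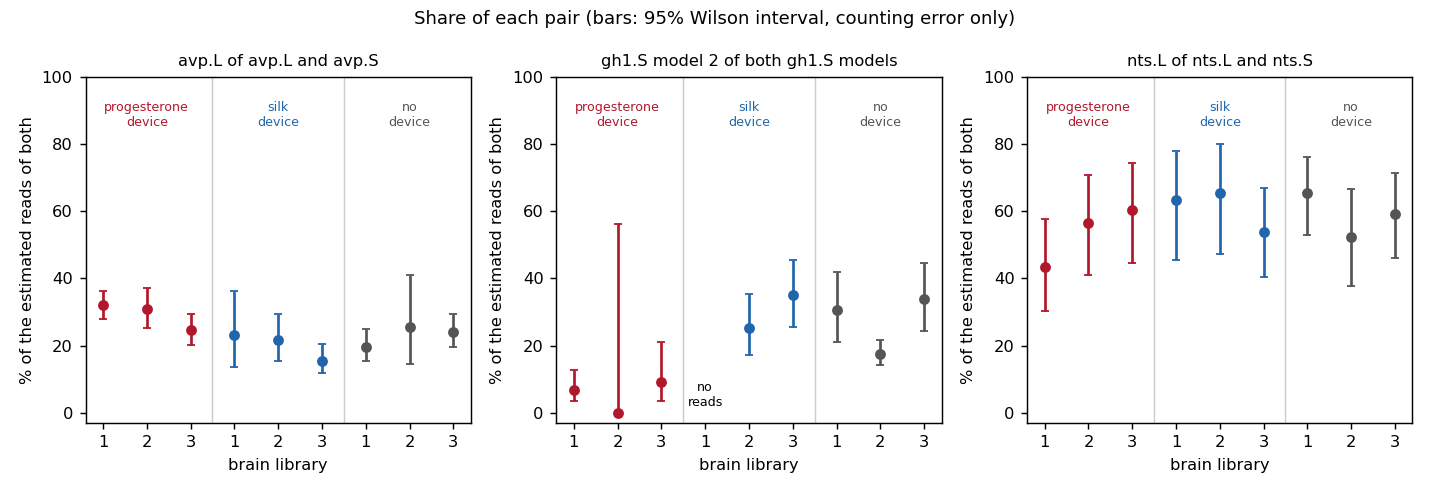
Share of avp.L in the reads of both avp copies, of gh1.S model 2 in the reads of both gh1.S models and of nts.L in the reads of both nts copies (vertical axis, %) in brain libraries 1 to 3 with progesterone, silk and no device; bars are 95% Wilson intervals on estimated reads. The gh1.S shares of progesterone 1 and 3, 6.72 and 9.09%, lie below those of the silk and no device libraries with reads, 17.6 to 34.9%. The interval of progesterone 3 reaches above the value of no device 2. Progesterone 2 had 0 of 3 reads (interval 0 to 56.15%), and silk 1 had no reads. The avp shares overlap between progesterone and no device and the nts shares between all groups.

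The libraries silk 2 and no device 2, the highest for both gh1.S models, were also the highest for nearly all pituitary hormones. The list of pituitary hormone genes held 15 copies, among them both gh1.S models, and in 13 of the 15 both silk 2 and no device 2 exceeded the other 7 brain libraries. The exceptions were gphb5.L, with a mean of 0.139 FPKM, and a second model named lhb.L, with a mean of 4.75 FPKM. Summed over the list, the level was 1236, 237 and 663 FPKM in progesterone 1, 2 and 3, 28.0, 3063 and 344 FPKM in silk 1, 2 and 3, and 349, 3426 and 382 FPKM in no device 1, 2 and 3. Prolactin gave the largest part: prl.1.L stood at 454, 51.0 and 236 FPKM in the progesterone brains, at 1.79, 1054 and 88.0 FPKM in the silk brains and at 86.6, 1206 and 77.1 FPKM in the no device brains. The proopiomelanocortin gene pomc.L, whose product is cut into corticotropin and melanotropin, differed from these in the progesterone brains, where it was even, at 49.4, 62.2 and 64.7 FPKM. It was at 8.13, 149 and 29.3 FPKM with silk and 29.8, 152 and 39.8 FPKM without a device.

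**Figure D3:**
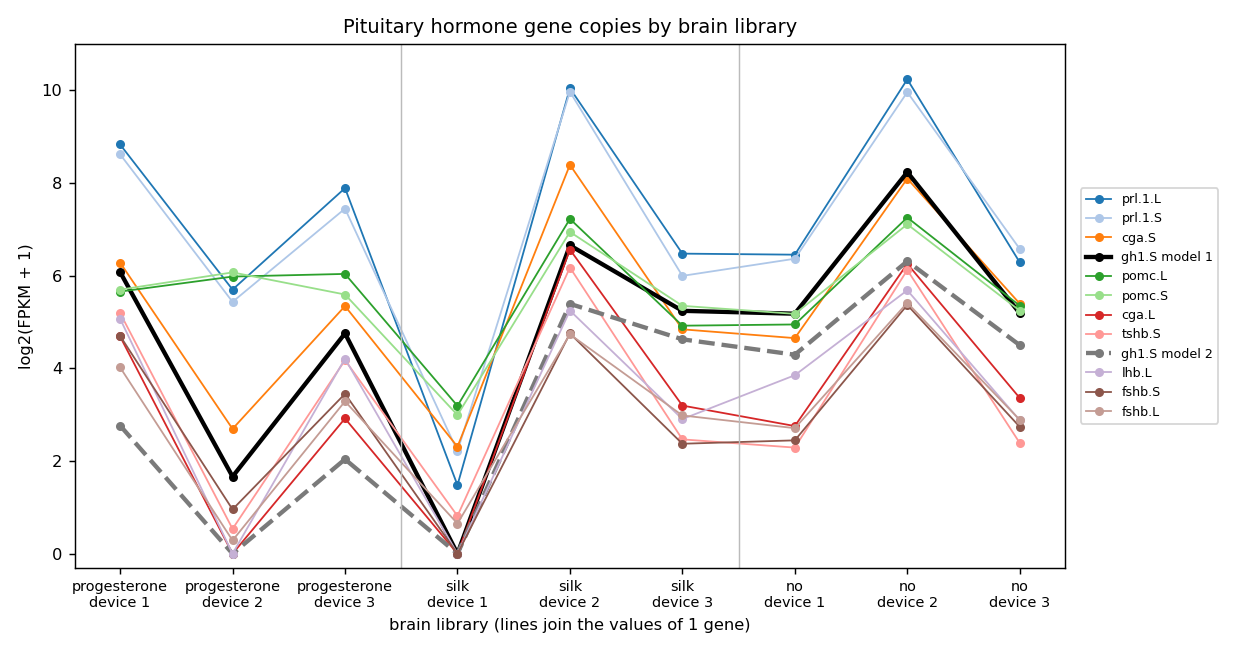
log2(FPKM + 1) of the 12 pituitary hormone copies with a mean of at least 5 FPKM in the 9 brain libraries with progesterone, silk and no device; each line joins the values of 1 copy, gh1.S model 1 in black and model 2 dashed. All 12 copies are higher in silk 2 and no device 2 than in the other 7 libraries.

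Over the 8 brain samples gh1.S model 1 ran with these genes. Pearson's r of log2(FPKM + 1) was 0.93 with prl.1.L and with prl.1.S, 0.94 with cga.S (the alpha subunit shared by thyrotropin and the gonadotropins), 0.96 with fshb.L, 0.88 with tshb.S and 0.76 with pomc.L. For model 2 the values were 0.74 with prl.1.L, 0.86 with cga.S and 0.91 with model 1 itself. How much of the level of gh1.S in a library goes with the amount of pituitary tissue in it was not tested, and the labels do not state the dissection. The number of samples is small and the points share library and depth, so these values describe the libraries only.

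The other pituitary hormone copies did not pass the test in any brain comparison. Of 12 such copies tested, 1 was positive and 11 negative for progesterone minus no device, at a median of −0.94 beside −0.02 over all 27157 genes tested. For silk minus no device all 12 were negative (median −1.36, all genes −0.14), and for progesterone minus silk 8 were positive and 4 negative (median 0.52, all genes 0.12). These counts rest on single libraries: without no device 2 the first became 8 positive and 4 negative (median 0.63), and without progesterone 2 it became 5 and 7. The second became 4 positive and 8 negative without silk 1 (median −0.09) or without no device 2 (median −0.08), and the third 1 positive and 11 negative without silk 1 (median −0.87) and 12 and 0 without silk 2 (median 1.63). Without silk 3 the second stayed at 0 and 12, and the third became 7 and 5 (median 0.56). The pituitary cell factors, transcription factors and receptors of the hormone-making cells, were 2 positive and 9 negative of 11 for progesterone minus no device, with summed levels of 31.9 to 41.6 FPKM with progesterone, 27.8 to 40.9 FPKM with silk and 38.6 to 52.0 FPKM without a device. Of all genes tested, 52.8% were negative for progesterone minus no device, 68.3% for silk minus no device and 34.4% for progesterone minus silk.

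The neurotensin copy nts.L was lowest in the progesterone brains. The nts.L gene stood at 15.6, 21.5 and 18.8 FPKM in progesterone 1, 2 and 3, at 47.0, 37.3 and 23.8 FPKM in silk 1, 2 and 3, and at 36.3, 25.3 and 27.8 FPKM in no device 1, 2 and 3. All progesterone libraries lay below all silk and no device libraries, while silk and no device overlapped. The means were 18.7 ± 2.94 FPKM with progesterone, 36.0 ± 11.7 FPKM with silk and 28.6 ± 4.79 FPKM without a device (SD, n = 3, 3 and 2). The difference was −0.59 ± 0.31 for progesterone minus no device, −0.87 ± 0.28 for progesterone minus silk and 0.28 ± 0.31 for silk minus no device. With 1 sample left out these ran over −0.76 to −0.43, −1.14 to −0.66 and 0.06 to 0.54 in that order. Without silk 3 progesterone minus silk was −1.14 and silk minus no device 0.54, and without silk 1 silk minus no device was 0.06. Only 19 to 40 estimated reads per library lay behind nts.L.

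The other neurotensin copy showed less. The nts.S gene stood at 18.9, 15.5 and 11.5 FPKM in progesterone 1, 2 and 3, at 25.4, 18.4 and 18.9 FPKM in silk 1, 2 and 3, and at 17.8, 21.5 and 17.8 FPKM in no device 1, 2 and 3. Progesterone 1 lay inside the span of the silk and of the no device libraries. The difference was −0.36 ± 0.27 for progesterone minus no device (adjusted p = 1 in limma), −0.43 ± 0.24 for progesterone minus silk (adjusted p = 0.699) and 0.08 ± 0.27 for silk minus no device (adjusted p = 0.979). The share of nts.L in the reads of both copies was 43.5 to 60.5% with progesterone, 54.0 to 65.5% with silk and 52.4 to 65.6% without a device, and the intervals of all 9 libraries overlapped.

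Gonadotropin-releasing hormone mRNA was scarce. The gnrh1.L gene stood at 13.7, 4.38 and 1.84 FPKM in progesterone 1, 2 and 3, at 0, 0 and 23.6 FPKM in silk 1, 2 and 3, and at 19.99, 18.0 and 18.9 FPKM in no device 1, 2 and 3. The progesterone libraries lay below the no device libraries, and the 2 silk libraries at 0 and the third at 23.6 FPKM lay on either side of both groups. The estimated reads were 8, 2 and 1 with progesterone, 0, 0 and 12 with silk and 10, 7 and 10 without a device. In silk 1 and 2, the shallowest brain libraries, 3 reads were worth 16.6 and 13.2 FPKM, so a level of that size can be listed at 0 there. The library silk 3, the highest of the group, is the one near-identical to the no device libraries.

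The difference for gnrh1.L was −1.70 ± 1.38 for progesterone minus no device, −2.76 ± 1.38 for silk minus no device and 1.06 ± 1.23 for progesterone minus silk. Without silk 3 the last 2 became −4.30 and 2.60, with both silk libraries left at 0. The 3 reads that such a listing allows, worth 16.6 and 13.2 FPKM, lie below the no device values of 18.0 to 19.99 FPKM. They lie above progesterone 2 and 3, at 4.38 and 1.84 FPKM, so no order of silk and progesterone can be drawn from them. With limma-voom on estimated reads progesterone minus silk was −0.18. Whether the group means of this gene differ was not tested, and few reads lie behind them.

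**Figure D4:**
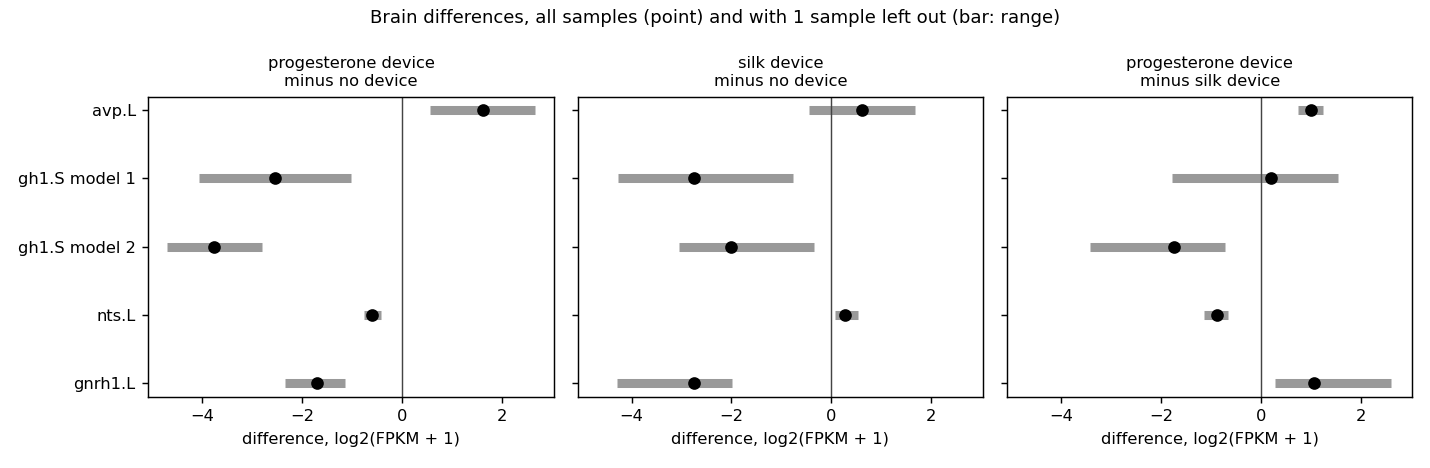
Differences in brain on the log2(FPKM + 1) scale (horizontal axis) for progesterone minus no device, silk minus no device and progesterone minus silk; points use all samples and bars span the values with 1 sample left out. For progesterone minus no device the bar of nts.L is short (−0.76 to −0.43) and that of avp.L long (0.56 to 2.67), and the bar of gh1.S model 1 for progesterone minus silk spans −1.78 to 1.55. Genes whose groups do not overlap cannot cross 0 when a sample is left out.

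Set against all genes, samples that did not overlap were common in this small design. For progesterone against no device 4 of the 5 gene models did not overlap, avp.L being higher and gh1.S model 2, nts.L and gnrh1.L lower. Over all genes tested, 20.3% did not overlap, 8.82% with progesterone higher and 11.5% with progesterone lower. For progesterone against silk 2 of 5 did not overlap (avp.L higher and nts.L lower), beside 13.0% of all genes, 9.8% higher and 3.19% lower. For silk against no device 0 of 5 did, beside 17.2% of all genes. Without the library labelled silk 3, 2 of 5 did not overlap for silk against no device (nts.L higher and gnrh1.L lower), beside 36.9% of all genes, and 3 of 5 for progesterone against silk (gnrh1.L and avp.L higher, nts.L lower), beside 29.5%. The genes were chosen on these values, so nothing is read from these counts.

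Across the whole brain transcriptome, limma on log2(FPKM + 1) called 0 of 27157 genes (0.0%) for progesterone against no device and 0 (0.0%) for silk against no device at an adjusted p under 0.05, with 789 and 1278 genes at an unadjusted p under 0.05. For progesterone against silk it called 6 genes (0.0221%), with 2154 at an unadjusted p under 0.05, and 5 of the 6 have no gene name in the tables. No gene of the 7 neuroendocrine lists was among them. These lists together hold 154 tested copies beyond the 5 described above, of which 6 for progesterone against no device, 6 for silk against no device and 12 for progesterone against silk had an unadjusted p under 0.05. These are 3.90%, 3.90% and 7.79% of the listed copies, beside 2.91%, 4.71% and 7.93% of all genes tested.

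No tested peptide gene of the hypothalamus passed the threshold. Of 16 tested copies of releasing and neurohypophysial peptide genes, avp.L and gnrh1.L not counted, 4 were positive and 12 negative for progesterone minus no device, and 0 passed the test. For progesterone minus silk 6 were positive and 10 negative, which without silk 3 turned to 9 and 7. Of all genes tested, 52.8% were negative for progesterone minus no device and 34.4% for progesterone minus silk. Somatostatin, which inhibits the release of growth hormone, was among the most abundant: sst.S averaged 82.4 ± 19.4 FPKM with progesterone, 78.8 ± 28.4 FPKM with silk and 91.2 ± 1.57 FPKM without a device, and sst.2 averaged 63.6 ± 11.7, 79.0 ± 10.9 and 93.8 ± 11.3 FPKM in that order. The difference of sst.2 was −0.56 ± 0.24 for progesterone minus no device (adjusted p = 1 in limma).

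No tested gene of the list of other brain neuropeptides passed the threshold. Of 40 tested copies without nts.L, 4 were positive and 36 negative for progesterone minus no device, at a median of −0.33 beside −0.02 over all genes, of which 52.8% were negative. Markers of choroid plexus and meninges summed to 83.7, 3336 and 2082 FPKM in progesterone 1, 2 and 3, and their part in these values was not tested. For silk minus no device 12 were positive and 28 negative, with a median of −0.13 beside −0.14 over all genes, and for progesterone minus silk 16 were positive and 24 negative (median −0.08, all genes 0.12), which without silk 3 turned to 20 positive and 19 negative (median 0.04, all genes 0.17). With 1 sample left out the negative count for progesterone minus no device ran from 29 of 40 (without the merged no device sample) to 36 of 40. Abundant members were neuropeptide Y (npy.L) at 145 ± 27.6 FPKM with progesterone, 172 ± 13.1 FPKM with silk and 173 ± 27.6 FPKM without a device, and proenkephalin (penk.L), the precursor of opioid peptides, at 99.3 ± 5.92, 117 ± 18.4 and 123 ± 3.98 FPKM in that order. The substance P precursor gene tac1.S averaged 27.2 ± 2.59 FPKM with progesterone, 27.0 ± 9.12 FPKM with silk and 39.4 ± 6.70 FPKM without a device, a difference of −0.52 ± 0.30 for progesterone minus no device (adjusted p = 1 in limma).

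Neuropeptide B had the smallest p of the listed genes in both comparisons with silk. The npb.L gene stood at 5.30, 9.03 and 3.79 FPKM in progesterone 1, 2 and 3, at 0, 2.27 and 1.00 FPKM in silk 1, 2 and 3, and at 9.28, 9.29 and 7.81 FPKM in no device 1, 2 and 3. All silk libraries lay below all others. These are low values: 1 read in a 1 kb gene was worth 1.56, 1.24 and 0.543 FPKM in silk 1, 2 and 3. In silk 1 and 2, the shallowest brain libraries, a low level can be listed at or near 0. Silk 3, at 1.00 FPKM, held 1841559 estimated reads, within the 1382822 to 1879372 of the no device libraries. The difference was 1.84 ± 0.45 for progesterone minus silk (adjusted p = 0.403 in limma) and −2.41 ± 0.50 for silk minus no device (adjusted p = 0.760), so neither passed. Without silk 3 the differences were 1.89 ± 0.54 (adjusted p = 0.262) and −2.45 ± 0.59 (adjusted p = 0.318).

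Among the peptide hormone receptors 12 of 36 tested copies were positive and 24 negative for progesterone minus no device, and 0 passed. Of all genes tested, 52.8% were negative in this comparison. The prolactin receptor gene prlr.S averaged 24.2 ± 2.96 FPKM with progesterone, 15.1 ± 0.766 FPKM with silk and 18.7 ± 1.99 FPKM without a device. Its difference of 0.64 ± 0.18 for progesterone minus silk had adjusted p = 0.460 in limma, and without silk 3 it was 0.63 ± 0.20 (adjusted p = 0.299). The tachykinin receptor gene tacr3.L, which in mammals takes part in the control of gonadotropin-releasing hormone neurons, averaged 5.85 ± 0.946, 6.26 ± 1.013 and 8.74 ± 0.70 FPKM with progesterone, silk and no device, with a difference of −0.52 ± 0.22 for progesterone minus no device (adjusted p = 1).

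The genes that process and store peptide hormones were 4 positive and 19 negative of 23 for progesterone minus no device. Beside this, 52.8% of all genes tested were negative, and 0 of the 23 passed. The largest difference among them was that of pcsk2.L, encoding a prohormone convertase, at 59.0, 266 and 171 FPKM in progesterone 1, 2 and 3, at 53.3, 50.8 and 67.2 FPKM in silk 1, 2 and 3, and at 74.9, 50.0 and 74.8 FPKM in no device 1, 2 and 3. Progesterone 2 and 3 lay above all other libraries and progesterone 1 within them, and the difference was 1.17 ± 0.57 for progesterone minus no device (adjusted p = 1 in limma). The same 2 libraries were the highest in 8 of the 16 copies of the list of choroid plexus and meninges genes, and not in the other 8, among them both slc13a4, lum and dcn copies. The summed level of the list was 83.7, 3336 and 2082 FPKM in progesterone 1, 2 and 3, beside 76.5 to 191 FPKM with silk and 108 to 185 FPKM without a device. The prostaglandin D synthase gene ptgds.L made up most of it, with 14.9, 3151 and 1935 FPKM in progesterone 1, 2 and 3. The klotho gene kl.S, at 0.27, 17.2 and 9.81 FPKM in progesterone 1, 2 and 3, was at most 0.71 FPKM in all other brain libraries.

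The progesterone brains thus differed among themselves in marker content. Progesterone 1, whose summed level of this list lay within the span of the silk and no device libraries, had the highest avp.L (97.4 FPKM) and the lowest nts.L (15.6 FPKM) of the 9 brain libraries. Progesterone 2 and 3, with the high sums, also lay above all silk and no device libraries for avp.L and below them for nts.L. In the silk group, skeletal muscle markers summed to 388 FPKM in silk 1, beside 33.6 and 67.0 FPKM in silk 2 and 3, 40.6 to 77.7 FPKM with progesterone and 46.1 to 58.0 FPKM without a device. This is the library with the lowest depth, in which both gh1.S models and gnrh1.L were listed at 0 and nts.L was highest. The part of marker content in the levels of the described genes was not tested.

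Downstream of growth hormone, no gene of the growth hormone and insulin-like growth factor axis passed the test in brain. Summed over the list they stood at 77.4 to 86.7 FPKM with progesterone, 55.1 to 72.9 FPKM with silk and 75.8 to 82.4 FPKM without a device. Of 20 tested copies, 10 were positive and 10 negative for progesterone minus no device, 5 and 15 for silk minus no device and 16 and 4 for progesterone minus silk (5 and 15, and 15 and 5, without silk 3). Most genes leaned the same way in both comparisons with silk: 52.8%, 68.3% and 34.4% of all genes tested were negative in that order. The kinase gene jak2.L, which signals for the growth hormone receptor, averaged 7.39 ± 0.517, 6.39 ± 1.20 and 9.33 ± 0.0106 FPKM with progesterone, silk and no device. The last SD rests on 2 samples, and the libraries no device 1, 2 and 3 stood at 10.09, 9.34 and 8.56 FPKM. The receptor gene igf1r.S averaged 9.07 ± 1.75, 7.29 ± 3.30 and 10.1 ± 1.35 FPKM with progesterone, silk and no device. The transcription factor gene stat5b.L, a target of that kinase, averaged 10.9 ± 0.747, 10.3 ± 1.23 and 11.3 ± 1.12 FPKM.

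Genes most alike in pattern over the 8 brain samples were found by Pearson's r of log2(FPKM + 1) among 21729 genes with a mean of at least 1 FPKM. For gh1.S model 1 these were uchl5.S (0.99), LOC108699533 (0.99), LOC108710059 (0.99), ogt.L (0.98) and gh1-like.L (0.98), and for model 2 gnai1.L (0.99), ccdc9.S, LOC108715931, sec14l3.L and pou6f1.L (0.96 each). The gene named gh1-like.L stood at 13.0, 1.89 and 12.2 FPKM in progesterone 1, 2 and 3, at 0, 30.3 and 15.2 FPKM in silk 1, 2 and 3, and at 17.9, 110.2 and 16.5 FPKM in no device 1, 2 and 3, again highest in no device 2 and silk 2. For avp.L the genes were polr2i.L, arhgef39.L, ccdc6.L, otud3.S and zbtb43.S, with r of 0.94 to 0.95, and for gnrh1.L cdh11.L, usp8.S, sp4.S, kcnc2.S and rnf5.L, with r of 0.96 to 0.98. For nts.L they were LOC108706551, apopt1.L, LOC108704226, LOC108709448 and cartpt.S, with r of 0.95 to 0.97.

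Of these, cartpt.S encodes the precursor of another hypothalamic neuropeptide, CART. It stood at 7.56, 7.31 and 7.78 FPKM in progesterone 1, 2 and 3, at 14.7, 12.6 and 9.31 FPKM in silk 1, 2 and 3, and at 11.9, 10.5 and 11.9 FPKM in no device 1, 2 and 3. Like nts.L it was lower in all progesterone libraries than in all others. It was picked for its likeness to nts.L over these same samples, so this shared pattern is not a separate result. With 8 samples and this many genes, high values of r arise for many pairs, and they are given as a description.

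In the limb the genes were close to the limit of detection. Over 18 limb libraries the 5 gene models and the 2 other copies had 0 to 4 estimated reads per library, with 1 exception. In blastema, avp.L was above 0 in 5 of 9 libraries, at up to 6.30 FPKM, and nts.L in 5 of 9, at up to 8.92 FPKM. The gh1.S models were above 0 in 4 and 1 of 9 blastema libraries, at up to 5 and 1.86 FPKM, and gnrh1.L in 3 of 9, at up to 10.6 FPKM. In stump, avp.L was above 0 in 2 of 9 libraries, both with silk, and nts.L in 3, the gh1.S models in 2 each and gnrh1.L in 4. The median over the 9 stump libraries was 0 for all 7 copies, beside brain medians of 47.3 FPKM for avp.L, 194 FPKM for avp.S, 35.5 FPKM for gh1.S model 1, 25.3 FPKM for nts.L and 13.7 FPKM for gnrh1.L.

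The exception was the vasotocin copy avp.S in blastema. It stood at 0, 0 and 0 FPKM in progesterone 1, 2 and 3, at 5.5, 0 and 0 FPKM in silk 1, 2 and 3, and at 37.6, 7.86 and 11.9 FPKM in no device 1, 2 and 3, the last resting on 16, 2 and 4 reads. All no device libraries lay above all device libraries. The difference was −4.04 ± 0.96 for progesterone minus no device (adjusted p = 0.994 in limma) and −3.13 ± 0.86 for silk minus no device (adjusted p = 0.295), so neither passed. Of the blastema samples with a device only silk 1 reached 1 FPKM, so avp.S passed the filter only through the no device samples. Its tests here are thus no support for a difference and are given as a description. In the authors' deposited table the q-value for progesterone against no device was 0.00287. The 3 reads that a listing of 0 allows are worth 5.10, 26.8 and 5.94 FPKM in progesterone 1, 2 and 3. So progesterone 1 and 3, which count as 1 sample, lay below each no device value, while progesterone 2 could hold as much. In silk 1, 2 and 3 the same 3 reads are worth 16.3, 21.3 and 22.3 FPKM, above the values of no device 2 and 3. Silk 2 and 3, listed at 0, could thus hold as much as no device 2 and 3.

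The summed levels of the pituitary hormone list and of the neuron marker list were also highest in blastema no device 1. In no device 1 the pituitary hormone list summed to 140.3 FPKM and the neuron markers to 397 FPKM. In no device 2 and 3 the sums were 16.97 and 71.0 FPKM for the hormones and 135 and 305 FPKM for the neuron markers. With progesterone the hormone list summed to 11.8 to 51.4 FPKM and the neuron markers to 109 to 279 FPKM, and with silk to 12.3 to 31.9 FPKM and 89.5 to 193 FPKM. Skeletal muscle markers also stood apart in the whole group, at 3906, 2411 and 3946 FPKM in blastema progesterone 1, 2 and 3, at 1516, 889 and 2454 FPKM in silk 1, 2 and 3, and at 32198, 32228 and 16469 FPKM in no device 1, 2 and 3. The part of either in the avp.S values was not tested. In blastema silk 1, 2 and 3 and progesterone 2, smad4.1.S alone took 22.4 to 40.4% of the estimated reads. Its part in these sums and in the avp.S values was not tested.

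**Figure D5:**
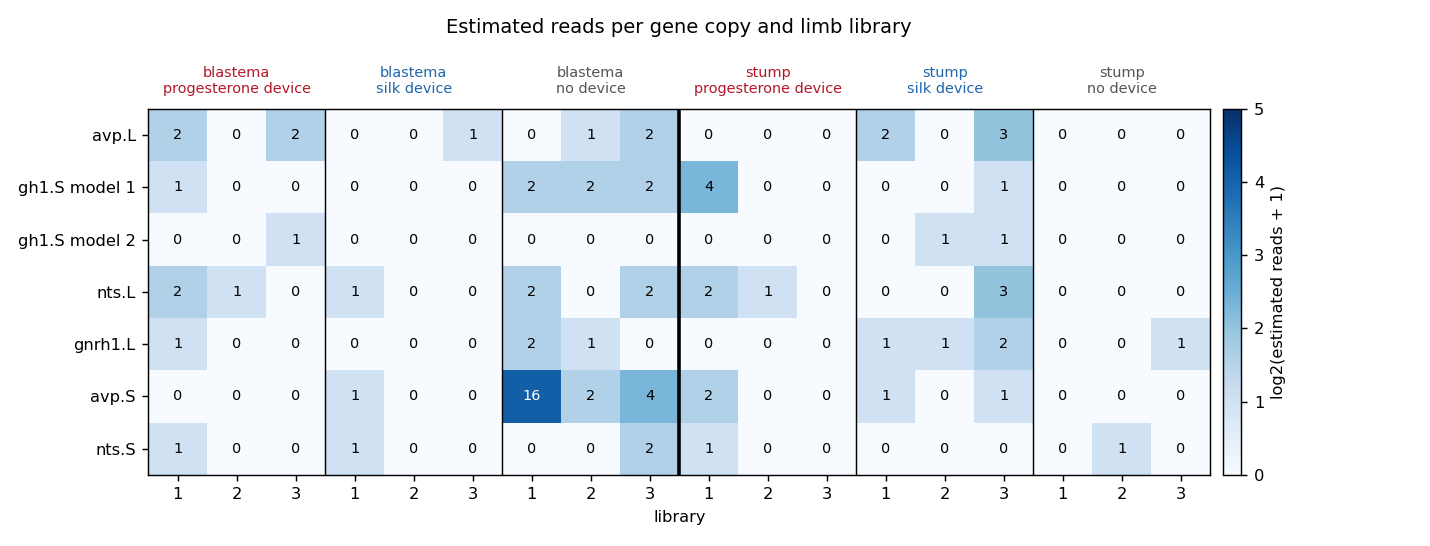
Estimated reads (number in each cell, colour on a log2 scale) of the 5 gene models and of avp.S and nts.S in the blastema and stump libraries with progesterone, silk and no device. All cells hold 0 to 4 reads except avp.S in blastema no device 1, with 16.

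In the limb tests 5 of the 7 copies in blastema and 2 of the 7 in stump had FPKM of at least 1 in 3 samples and entered limma, and 0 passed. The share of all genes called was 0.0% in each of the 3 comparisons in blastema (37273 genes) and in each of the 3 in stump (29972 genes). At an unadjusted p under 0.05 in limma there were 5 results in blastema from 5 copies, and 2 in stump from 2 copies, each over 3 comparisons. Those in blastema were gh1.S model 1 and avp.S for both treatments against no device, and gnrh1.L for silk against no device. Both in stump were gnrh1.L in the comparisons with silk. Within each tissue they share the same no device or silk samples, so they are not separate results. For progesterone against no device, silk against no device and progesterone against silk, all genes gave 1378, 2859 and 2102 of 37273 in blastema. In stump all genes gave 2953, 3892 and 1149 of 29972. In blastema gh1.S model 1 was at 1.24, 0 and 0 FPKM with progesterone, at 0 in all silk libraries, and at 4.59, 5 and 3.67 FPKM without a device, on 2 reads each. The difference of silk minus no device was −2.43 ± 0.53 (adjusted p = 0.155 in limma), and 3 reads were worth 12.7 to 17.4 FPKM in the silk libraries, above every value without a device. Only the no device samples brought gh1.S model 1 past the filter, so this test is no support for a difference.

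In stump, gnrh1.L was listed at 0 in all progesterone libraries, at 11.8, 9.05 and 10.4 FPKM in silk 1, 2 and 3, and at 0, 0 and 1.23 FPKM in no device 1, 2 and 3. The silk values rest on 1, 1 and 2 reads in libraries of 300276, 390568 and 680487 estimated reads, against 2006622 to 3468309 without a device. In the merged samples gnrh1.L reached 1 FPKM only with silk, so the filter let it in through the silk group alone. Its tests against silk are thus no support for a difference and are given as a description. The difference was −3.51 ± 0.46 for progesterone minus silk (adjusted p = 0.103 in limma) and 3.16 ± 0.52 for silk minus no device (adjusted p = 0.125). It passed with some other settings: with separate libraries for progesterone minus silk (adjusted p = 0.0387) and silk minus no device (adjusted p = 0.0202), with limma-voom for silk minus no device (adjusted p = 0.0200) and with a pseudocount of 0.1 for progesterone minus silk (adjusted p = 0.0222). Over all stump genes, separate libraries called 9 of 30215 for progesterone minus silk and 916 of 30215 for silk minus no device. Limma-voom called 7551 of 29972 for silk minus no device, and a pseudocount of 0.1 called 132 of 29972 for progesterone minus silk. In the authors' deposited table, silk against no device in stump had q-values of 0.00456 for avp.L and 0.0260 for nts.L. These 2 genes had 5 and 3 reads over the 3 silk libraries and 0 over the 3 no device libraries, which were the deepest stump libraries, and both failed the filter here.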

How the data were processed

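RNA was extracted with TRIzol and 1 µg depleted of ribosomal RNA before library preparation with 10 amplification cycles and 40 nt reads, per the labels' protocols. FastQC, Trimmomatic, STAR, RSEM and edgeR are named in the submitters' processing notes, without versions; genome build and annotation: not given in the sources used here. The library values that the authors deposited have no unit in the header and were taken as FPKM from their behaviour across genes and libraries. The deposited group means, called average CPM in the header, were used as a signal from which reads per library were estimated. These were not whole reads: 58.3 to 64.0% of low values lay within 0.1 of a whole read, so the main tests used no count model. Estimated reads served for the chi-square test of libraries, the Wilson intervals and limma-voom as an alternative setting. The authors' deposited log2 fold changes, p-values and q-values were copied only where named, and the kind of test is not stated.

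Values of log2(FPKM + 1) were tested with limma 3.58.1 (R 4.3.3), all samples of a tissue in 1 fit, for genes with at least 1 FPKM in 3 samples. P-values are two-sided, adjusted by Benjamini-Hochberg over all genes tested, with a threshold of 0.05. Libraries of a group differing at under 1% of genes were averaged; no label says that replicates came from separate frogs, so p-values measure only the spread between these samples. In brain without a device the SD rests on 2 samples, 1 of them an average, and can understate the spread of 3 libraries. Tables and figures were made with Python 3.11.15, pandas 2.3.3, scipy 1.17.1 and matplotlib 3.10.9, and the fit was tested on simulated data.

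The members and all 18 gene lists (259 of 333 symbols found) were chosen with earlier results of these data known. From each neuroendocrine list the 3 genes with the highest brain mean, and for each comparison the 2 with the largest difference among genes averaging at least 5 FPKM, could be named. For likeness the 5 genes with the highest r were named. The markers ptgds.L and kl.S, smad4.1.S and the examples among pituitary hormones were chosen after their values were seen. Alternatives were the pseudocount, filter, scaling, limma options, groups in the fit, unmerged libraries, a replicate block, limma-voom and leaving out each sample. Same-numbered brain libraries were not taken as pairs. Their deviations had correlations of −0.04 to 0.11. The near-identical silk 3 and no device 3 gave only 0.11, so this check cannot exclude pairing.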

Additional observations from a re-analysis of the deposited data

How the results depend on the processing

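The brain counts of called genes depended on the settings. For progesterone against no device, where 0 genes were called, a pseudocount of 0.1 called 6, fitting only the 2 groups 1, separate libraries 2, and leaving out 1 sample 0 to 4 (4 without the merged no device sample). For silk against no device, where 0 were called, a pseudocount of 0.1 called 35, separate libraries 5, and a minimum of 5 FPKM, a minimum of 10 estimated reads or limma-voom 1 each. Leaving out 1 sample called 0 to 26 there, with 26 without silk 3 and 13 without the merged no device sample. For progesterone against silk, where 6 were called, a pseudocount of 0.1 called 62, a pseudocount of 5 called 0, a minimum of 5 FPKM 3, a minimum of 10 estimated reads 1, limma with trend and robust options 3 and limma-voom 2. Leaving out 1 sample called 0 to 72 there, with 72 without silk 3, 10 without either no device sample and 0 without silk 1, silk 2, progesterone 1 or progesterone 2. The replicate block called 0 genes in each of the 3 brain comparisons.

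For the limb results, where 0 were called, a pseudocount of 0.1 called 2, separate libraries 2, limma-voom 2 and the replicate block 1, while leaving out 1 sample called 0 to 0. With the block this was gnrh1.L in stump for silk against no device (adjusted p = 0.0229 in limma). Over all genes the block called 904 of 30215 in that comparison. With a pseudocount of 0.1, gh1.S model 1 in blastema was called for silk against no device (adjusted p = 0.0463 in limma). Over all genes 288 of 37273 were called there. With limma-voom, avp.S in stump was called for silk against no device (adjusted p = 0.0327), on 2 reads with silk. Over all genes 7551 of 29972 were called there. In the main fit gnrh1.L in stump, and gh1.S model 1 and avp.S in blastema, passed the filter only through the group where they were high. The calls of gnrh1.L in stump and gh1.S model 1 in blastema under other settings are thus no support for a difference. A minimum of 10 estimated reads, and leaving out stump silk 1 or 3, gave no value because no copy was left to test there. The cause of these shifts was not tested. Among the brain differences of the 5 gene models, 276 of the values under alternatives moved by less than the spread between replicates and 6 by more. Limits are the small number of samples, a silk library near-identical to 2 no device libraries, and depth, with 50 estimated reads of gnrh1.L over all 9 brain libraries, and at most 23 of any copy over 9 blastema libraries.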

Other observations

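Summed levels of the genes of the growth hormone and insulin-like growth factor axis were also available for the limb. In blastema the list summed to 374, 142 and 417 FPKM in progesterone 1, 2 and 3, to 275, 163 and 212 FPKM in silk 1, 2 and 3, and to 321, 354 and 439 FPKM in no device 1, 2 and 3. In stump it summed to 390, 409 and 580.2 FPKM in progesterone 1, 2 and 3, to 326, 299 and 355 FPKM in silk 1, 2 and 3, and to 161, 187 and 166 FPKM in no device 1, 2 and 3. In brain the sums were 55.1 to 86.7 FPKM over the 9 libraries. In blastema silk 1, 2 and 3 and progesterone 2, smad4.1.S alone took 22.4 to 40.4% of the estimated reads. In stump silk 1, silk 2 and progesterone 1 it took 16.3 to 32.1%. Its part in these sums was not tested. Over all genes tested in stump, the median log2 difference from no device was 0.57 with progesterone and 0.52 with silk. In blastema it was −0.02 with progesterone and −0.36 with silk. No difference between tissues was tested, since the libraries of different tissues were not fitted together.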
